A study of Mus musculus with 2 samples.

Results

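The genes of the BCL2 survival proteins and of the pore-forming effectors were compared between leukaemia cells sorted for a high and a low NADH/NAD+ signal. The set has 7 genes, chosen by symbol and with earlier results of these data known. They are the survival genes Bcl2, Bcl2l1, Bcl2l2 and Mcl1, and the effector genes Bax, Bak1 and Bok. Non-control probes whose RefSeq accession matched these symbols were taken, which gave 10 of the 39085 probes and 7 of the 20618 genes with a symbol. The SoNar-high group was B-ALL cells (acute lymphoblastic leukaemia of the B lineage) from bone marrow of mice, age 8 weeks, with a high ratio of the NADH/NAD+ sensor SoNar. The SoNar-low group was B-ALL cells of the same tissue and age with a low ratio. Each group was 1 one-colour Agilent array. The labels used here give no strain, no inducing oncogene and no number of pooled animals, and the sample titles call the same arrays N-myc-high and N-myc-low.

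Proteins of the BCL2 family decide whether the outer mitochondrial membrane stays intact. The survival proteins hold the effectors in check and also bind the BH3-only proteins that a stressed cell makes. When BH3-only proteins occupy them, BAX and BAK join into pores, cytochrome c leaves the mitochondria and caspases are activated. B-lineage cells and their leukaemias are known to depend on BCL2, BCL-XL and MCL1 to different degrees, and these proteins are targets of BH3-mimetic drugs.

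With 1 array per group no test between the groups was possible and no difference below has a replicate check; having only 1 array for each limits the precision. A level is the processed signal in intensity units, which is background-subtracted spot brightness. A difference is the log2 value of SoNar-high minus that of SoNar-low, after each array was divided by the 75th percentile of its probes (409 units for SoNar-high, 470 units for SoNar-low). Errors are the scanner software's error of each spot, carried to the log2 scale, and cover the measurement of a spot only. Among 197 probes printed as 10 spots and seen on both arrays, the difference between single spots had a median SD of 0.15. On the SoNar-high array 44.8% of spots were well above background, against 72.9% on the SoNar-low array, and the lowest such probe signals were 40.8 and 17.7 units in the same order. The headers give the arrays separate scans, which cannot be told apart from the groups. Signals of different probes depend on their sequences, so no gene's level is set against another's.

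Of the 7 genes, 5 had a probe well above background on both arrays: Mcl1, Bcl2, Bcl2l1, Bak1 and Bax. All 5 lay above 0, from 0.25 for Bax to 0.72 for Bak1, with a median of 0.63. The median of all 10521 genes measured on both arrays was 0.22, and 66.9% of those genes lay above 0. None of the 5 was at least 2-fold higher and none was at least 2-fold lower, against 2.40% and 4.39% of all genes. At a threshold of 1.5-fold, 4 of the 5 were higher and none lower, against 20.4% and 10.2% of all genes. Measured from the median gene, those 4 lay between 0.37 and 0.50, which is 1.30-fold to 1.41-fold, while Bax lay at 0.02. With median scaling 4 of the 5 were at least 2-fold higher, against 32.1% of all genes. With no filter on dim probes 1 of 7 (Bcl2l2) was at least 2-fold lower, against 12.3% of all genes. Bcl2l1 counted as higher through 1 of its 2 probes. It lay at -0.96 once its other probe, dim on the SoNar-high array, was let in. No probe of Bcl2l2 or Bok passed the background call in SoNar-high cells. Of the 10 member probes, 4 passed it on the SoNar-low array alone and 0 on the SoNar-high array alone, as 11228 of all 39085 probes passed it on the SoNar-low array alone. The call can drop probes that were lower in SoNar-high cells, so the counts for the 5 genes hold only for the probes kept.

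**Figure D1:**
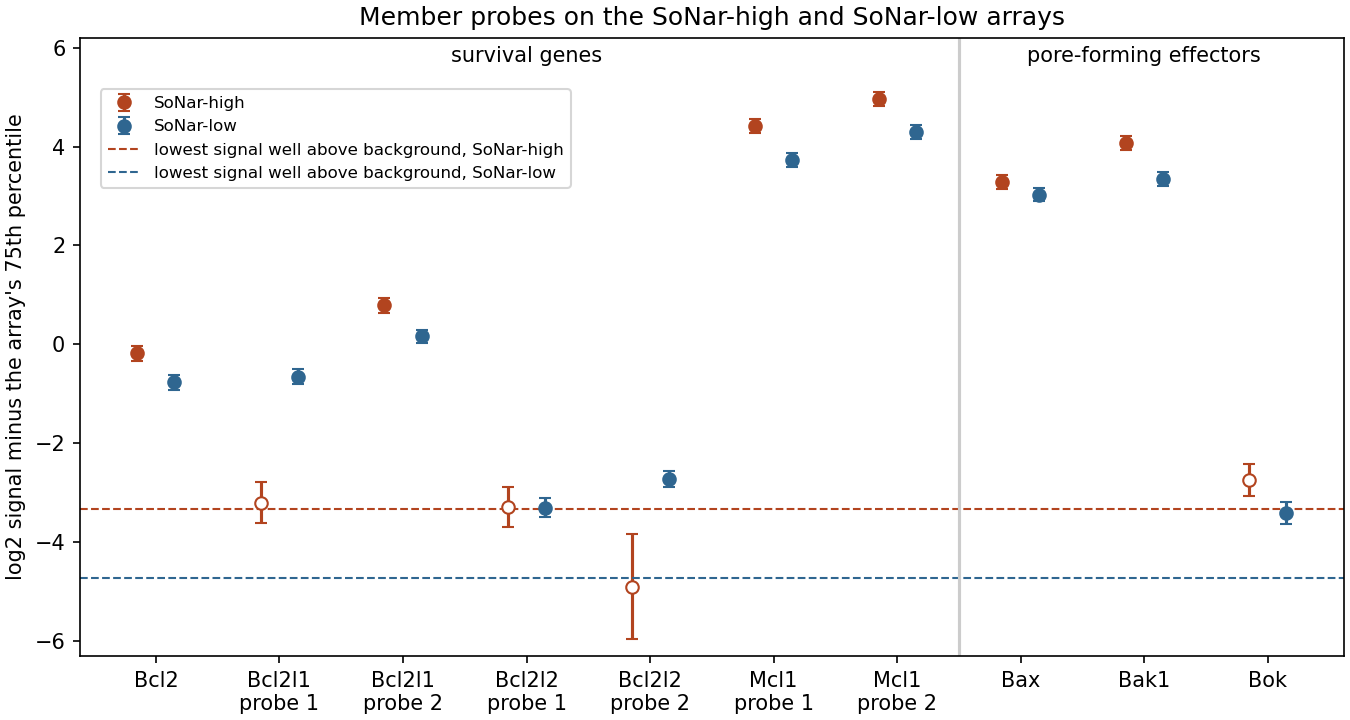
Log2 processed signal minus the array's 75th percentile for the 10 member probes, on the SoNar-high array (left point of each pair) and the SoNar-low array (right point); bars are the scanner's error of 1 spot. Hollow points were not well above background, and dashed lines mark the lowest signal well above background on each array. The first Bcl2l1 probe and the second Bcl2l2 probe had their SoNar-high points under their SoNar-low points, while the first Bcl2l2 probe had equal points within the error.

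Mcl1 encodes a short-lived survival protein that holds BAK and BAX and that early B-cell precursors need. Its first probe read 8682 ± 868 units on the SoNar-high array and 6214 ± 621 units on the SoNar-low array (scanner error, 1 spot each). Its second probe read 12828 ± 1283 units on the SoNar-high array and 9201 ± 920 units on the SoNar-low array. Both probes were thus brighter on the SoNar-high array by the same amount. The difference was 0.68 for each probe, and 0.68 ± 0.14 for the gene, a 1.60-fold difference. The gene's error takes the errors of the 2 probes as independent, although both were read on the same arrays. Over all 2394 genes with several probes measured on both arrays, the median SD between probes of a gene was 0.32, so such closeness of 2 probes was not the rule. Of all measured genes, 13.9% had a higher difference than Mcl1.

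Bcl2 encodes the founding survival protein, which guards mature lymphocytes and is the target of venetoclax. Its only matched probe read 362 ± 37.5 units on the SoNar-high array and 275 ± 27.8 units on the SoNar-low array. The difference of 0.60 ± 0.21 was 1.51-fold, and 19.6% of genes had a higher one. The probe carries the accession of 1 of the 2 curated RefSeq transcripts of Bcl2, and whether it also reads the other was not analysed here.

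Bcl2l1 encodes BCL-X, whose long splice form protects cells and whose short form promotes death. Its 2 probes, which carry the same accession, went opposite ways. The second probe (A_55_P1974877) read 706 ± 71.3 units on the SoNar-high array and 526 ± 52.7 units on the SoNar-low array, a difference of 0.63 ± 0.21 or 1.54-fold, and 17.5% of genes had a higher one. The first probe (A_52_P510877) read 44.6 ± 12.8 units on the SoNar-high array, not well above background, and 299 ± 30.3 units on the SoNar-low array. Its signal was therefore lower in SoNar-high cells by 5.84-fold, a log2 difference of -2.55 ± 0.44. The bound given for such a probe sets the dim array at the higher of the probe's own signal and the lowest signal well above background there. Here the probe's own signal was the higher. The bound of 5.84-fold is thus the ratio of the scaled readings and does not include the scanner error. The gene's difference of 0.63 rests on the second probe alone, because the first was not measured on both arrays.

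A gap of the first Bcl2l1 probe was already present in the unprocessed spots, but it was smaller there than the 5.84-fold of the processed signals. The median pixel of its spot was 146 on the SoNar-high array and 390 on the SoNar-low array, over local backgrounds of 18 and 24 in the same order. The 153 negative control spots had median pixels of up to 120 for SoNar-high and up to 138 for SoNar-low, so the probe's spot was brighter than any of them on its own array. Among the 162 other spots within 10 rows and 10 columns that were measured on both arrays, the median difference was 0.18. Of these spots, 14 were at least 2-fold lower, against 4.39% of all genes measured on both arrays. Nearby spots that failed the background call on either array were left out. These values thus cannot show whether other spots nearby lost their signal as this probe did. Of the 11228 probes seen on the SoNar-low array alone, 7.81% were at least 2-fold lower against the floor, and 0.374% had a bound as large as this probe's. A split of this kind also occurred elsewhere. Among 968 genes with some probes measured on both arrays and others seen on the SoNar-low array alone, 40 (4.13%) had a mean above 0 over the probes of the first kind and a bound of at least 2-fold lower for a probe of the other kind. In 2 of the 968, Bcl2l1 included, that bound was at least as large as 5.84-fold. RefSeq lists 5 curated transcripts of Bcl2l1. Which part or form each probe reads was not analysed here.

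Bcl2l2 encodes BCL-W, a survival protein best known from sperm formation. Its first probe read 41.9 ± 11.8 units on the SoNar-high array and 47.7 ± 6.29 units on the SoNar-low array. Its second probe read 13.7 ± 10.04 units on the SoNar-high array and 71.6 ± 8.39 units on the SoNar-low array. Both passed the background call in SoNar-low cells but not in SoNar-high cells. After scaling, the first probe's points differed by less than their error and no fold is given. The second was lower in SoNar-high cells by at least 1.53-fold.

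Among the effectors, Bak1 encodes BAK, which sits in the outer mitochondrial membrane and is held by MCL1 and BCL-XL. Its probe read 6884 ± 688 units on the SoNar-high array and 4793 ± 479 units on the SoNar-low array. The difference of 0.72 ± 0.20, or 1.65-fold, was the highest of the 5 measured genes under the 75th percentile scaling, and 11.6% of all genes had a higher one. Bax encodes the effector that moves from the cytosol to mitochondria when activated. Its probe read 3960 ± 396 units on the SoNar-high array and 3834 ± 383 units on the SoNar-low array. Its difference of 0.25 ± 0.20, or 1.19-fold, was that of a middling gene, since 47.9% of genes had a higher one, and it turned negative with 3 scalings (-0.05 with the 75th percentile over probes seen on both arrays, -0.03 with quantile normalization and -0.11 with loess).

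Bok encodes an effector that survival proteins do not restrain and that is kept low by degradation at the endoplasmic reticulum. Its probe read 61.1 ± 13.7 units on the SoNar-high array, not well above background, and 44.2 ± 6.74 units on the SoNar-low array, well above it. The array with the brighter reading was the one on which the probe failed the background call, so no fold is given.

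The promoters of Bax and Bak1, the 2 effectors measured on both arrays, are shown because the sample titles name N-myc. N-myc binds the E-box CACGTG together with MAX. The 250 bases before the annotated start are given from RefSeq (GRCm38.p6), in lower case with any E-box in capitals. The Bax stretch is chr7:45466899-45467148 and the Bak1 stretch chr17:27028628-27028877, both on the minus strand.
Bax: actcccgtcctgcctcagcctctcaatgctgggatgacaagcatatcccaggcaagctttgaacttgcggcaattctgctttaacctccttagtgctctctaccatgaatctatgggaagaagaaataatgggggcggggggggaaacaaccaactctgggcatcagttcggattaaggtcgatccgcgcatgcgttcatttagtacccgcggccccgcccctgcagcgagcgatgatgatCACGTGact
Bak1: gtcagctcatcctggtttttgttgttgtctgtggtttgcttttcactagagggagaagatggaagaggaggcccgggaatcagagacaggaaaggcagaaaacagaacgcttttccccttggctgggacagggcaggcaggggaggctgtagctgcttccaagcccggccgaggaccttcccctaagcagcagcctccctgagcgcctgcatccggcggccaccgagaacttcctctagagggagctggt
The Bax promoter held 1 E-box, at -9 to -4 from the start, and the Bak1 promoter held none. Of the 9 annotated starts of the 7 genes, only that of Bax held CACGTG, and none held the cAMP response element TGACGTCA. Both motifs read the same on either strand and did not overlap. Of all 32851 promoter stretches of this length, 6.02% held CACGTG and 1.55% held TGACGTCA. A match describes the letters of this stretch only.

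**Figure D2:**
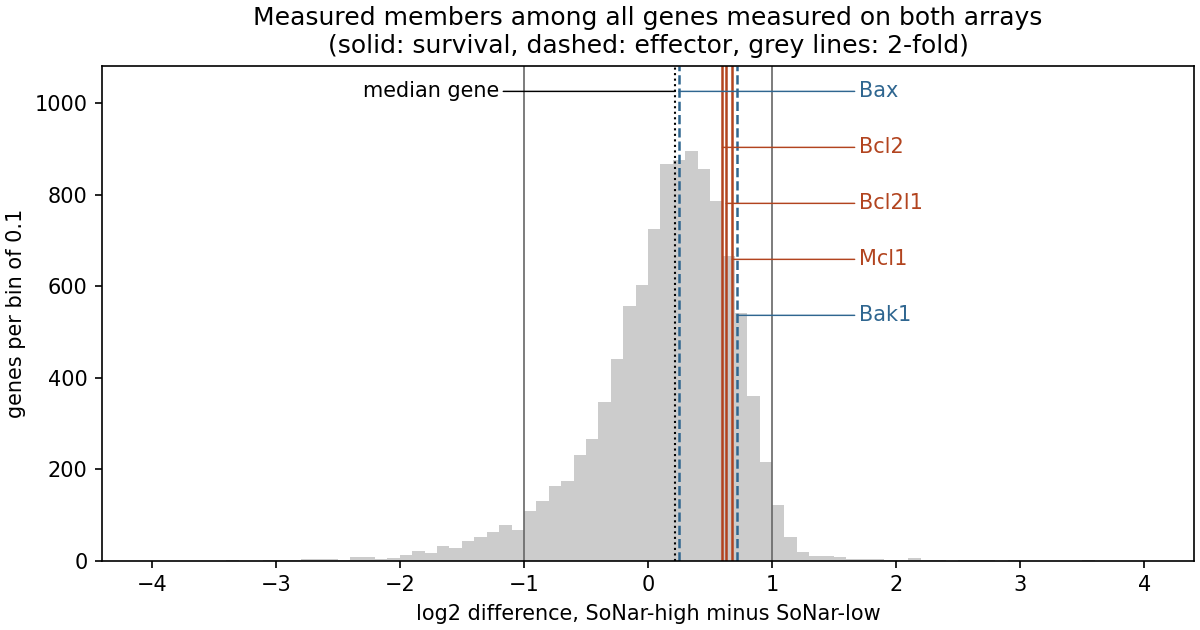
Number of genes (y axis, bins of 0.1) by log2 difference SoNar-high minus SoNar-low (x axis) over the 10521 genes measured on both arrays, with the 5 measured members as vertical lines. Bcl2, Bcl2l1, Mcl1 and Bak1 lie between 0.60 and 0.72, inside the 2-fold lines, and Bax at 0.25 lies next to the median gene at 0.22.

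Differences between 2 members do not depend on the scaling constant of either array. Bak1 stood above Bax by 0.48 ± 0.28, Mcl1 above Bax by 0.43 ± 0.24, Bcl2l1 above Bax by 0.38 ± 0.29 and Bcl2 above Bax by 0.35 ± 0.29. Bax was thus the lowest of the 5, by more than the scanner error in each pair but by little more than it for Bcl2. For Bcl2l1 this rests on its second probe alone. With its first probe let in, Bcl2l1 lay at -0.96, below Bax. As measured here, the 4 genes other than Bax differed from each other by 0.03 to 0.13, less than their errors of 0.24 to 0.30. The 3 measured survival genes averaged 0.64 and the 2 measured effectors 0.49, a gap of 0.15. The gap was 0.34 with quantile normalization, 0.31 with loess and 0.32 with the series matrix, and it turned to -0.74 with no filter on dim probes and -0.46 with a cut at 3 SD of the negative controls. Under the 75th percentile scaling Bak1 lay above each of the 3 survival genes and Bax below each. Removing a trend with level by loess left Bcl2 at 0.53, Bcl2l1 at 0.42, Bak1 at 0.38 and Mcl1 at 0.37, with Bax at -0.11 and the median gene at 0.05.

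**Figure D3:**
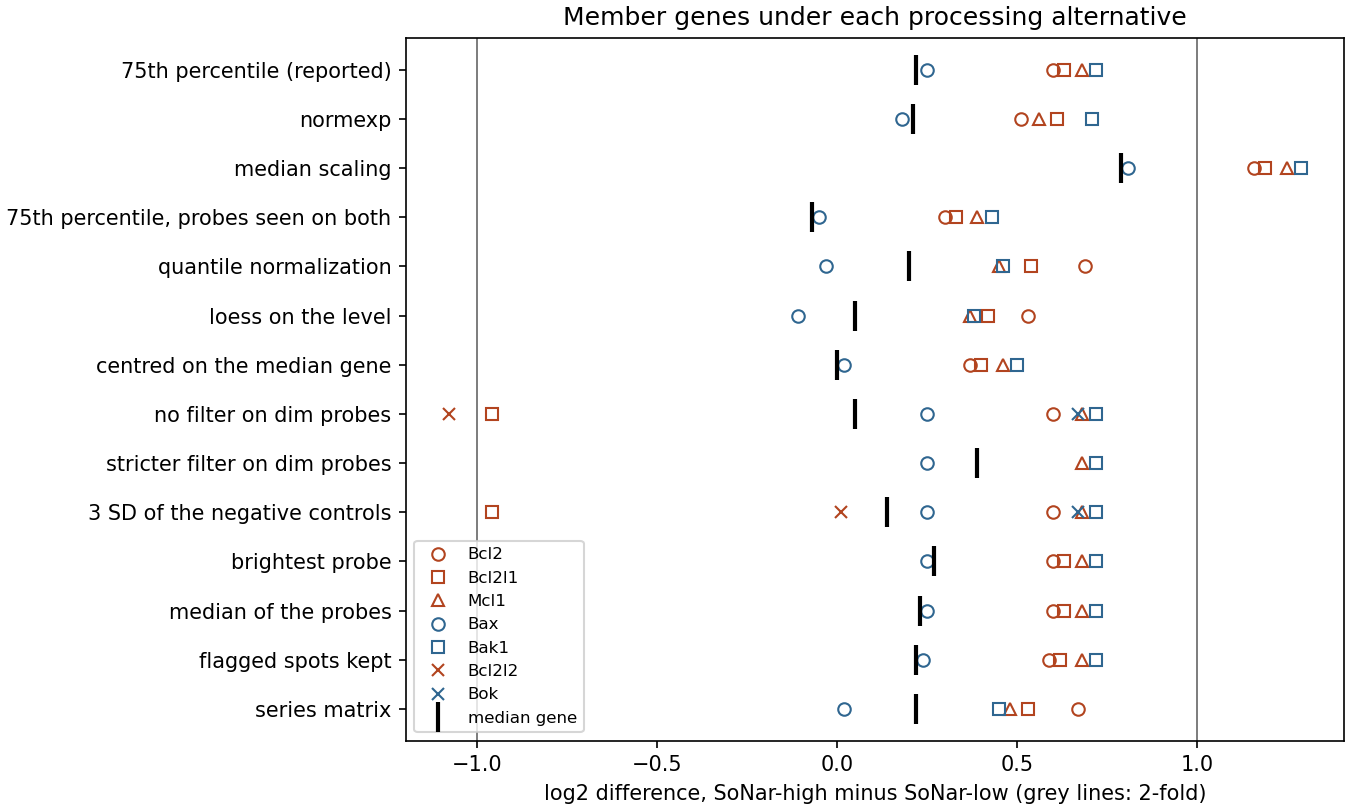
Log2 difference SoNar-high minus SoNar-low (x axis) of each member gene under the reported scaling and 13 alternatives (rows), with the median gene as a black bar. Bcl2, Mcl1 and Bak1 lie right of the median gene in each row that measured them, and Bax is the leftmost of those of the 5 that a row measured (3 with the stricter filter) except in the 2 rows that let dim probes in, where Bcl2l1 lies at -0.96.

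Other genes of the mitochondrial death pathway were read from 7 lists with 54 genes, of which 52 had a probe and 44 were measured on both arrays. Of the 44, 1 was at least 2-fold higher and none was at least 2-fold lower, against 2.40% and 4.39% of all genes. Their median was 0.29, close to the 0.22 of all genes, and 25 lay above the median gene. The highest and lowest measured genes of each list, at most 2 of each, are given next, and any other gene is marked as picked with its value known.

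The BH3-only list, which holds the natural antagonists of the survival proteins, had 6 of 8 genes measured and a median of 0.19. Bmf, a sensor of cytoskeletal stress, read 1424 units in SoNar-high and 777 units in SoNar-low cells, and was the gene past 2-fold (1.08, or 2.11-fold). It was not past 2-fold with normexp, the 75th percentile over probes seen on both arrays, loess or centring on the median gene. Pmaip1, which encodes the MCL1 antagonist NOXA, lay at 0.74. Bid, which links death receptors to mitochondria, lay at -0.34 and Bcl2l11, which encodes BIM, at -0.21. Bik and Hrk were not well above background on either array. Of the other BCL2-related genes only Bcl2l12 was measured on both arrays, at 0.24. Bcl2a1d, Bcl2l13, Bcl2l14 and Bcl2l15 passed the background call for SoNar-low cells alone, as 11228 of all 39085 probes did, and Bcl2l10 for neither. The Bcl2l15 probe that passed read 47.1 units on the SoNar-high array and 28.7 units on the SoNar-low array. The call alone thus does not show a lower level in SoNar-high cells.

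All 12 genes listed as outer-membrane and membrane-dynamics partners were measured, with a median of 0.33 and none past 2-fold. Highest were Sh3glb1, whose protein binds BAX (0.98), and the mitofusin gene Mfn1 (0.80). Lowest were Mtch2, whose protein receives cleaved BID (-0.64, the mean of probes at -1.83 and 0.54, of which the brighter is the second), and Mfn2 (-0.16). The outer-membrane channel gene Vdac2, whose protein binds BAK, lay at 0.76 (picked with its value known). Of the 5 genes of proteins released through the pore, the cytochrome c gene Cycs was highest (0.80), then the protease gene Htra2 (0.15). Endog (-0.12) and Aifm1 (0.04), which encode proteins that enter the nucleus, were lowest. The list's median was 0.13 and none was past 2-fold.

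The 9 apoptosome and caspase genes had a median of 0.37, with none past 2-fold. Casp2, which encodes an initiator caspase, lay at 0.76, and Fadd, which encodes a death receptor adaptor, at -0.20. The 5 genes of inhibitors of apoptosis had a median of 0.54, from Xiap, a direct caspase inhibitor (0.76), and Birc5, which encodes survivin (0.63), to Birc2 (-0.11) and Birc6 (-0.34). None was past 2-fold. Of 7 genes for turnover of MCL1 and BOK, 6 were measured, with a median of 0.52 and none past 2-fold. Huwe1, a ubiquitin ligase of MCL1, was highest (0.92) with 16563 units in SoNar-high and 10049.51 units in SoNar-low cells, followed by the ligase gene Marchf5 (0.56). Fbxw7, another MCL1 ligase (0.08), and Usp9x, which removes ubiquitin from MCL1 (0.33), were lowest.

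**Figure D4:**
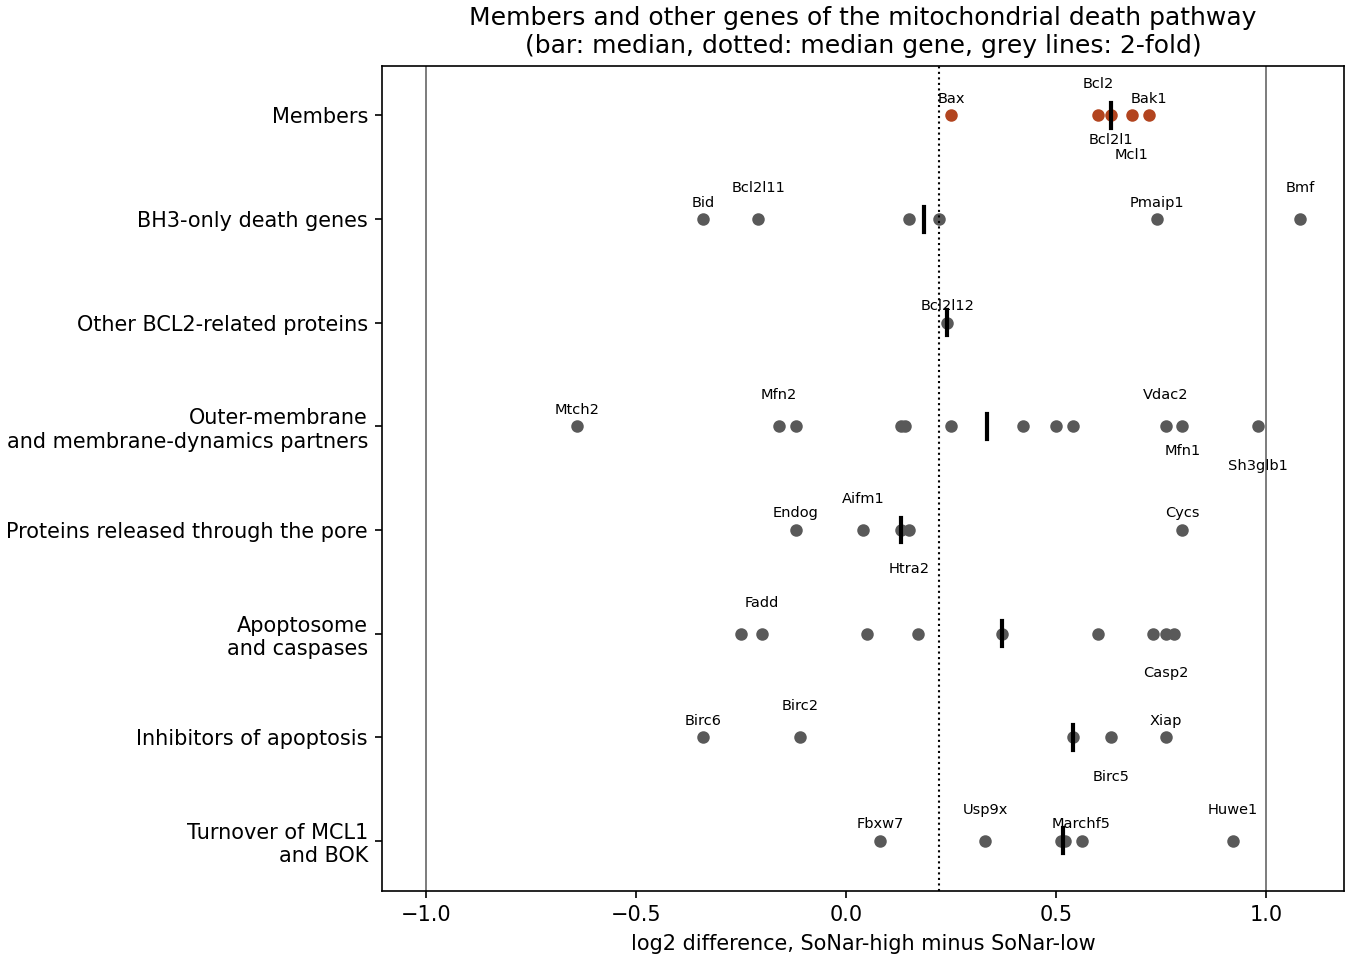
Log2 difference SoNar-high minus SoNar-low (x axis) of each measured gene, by list (rows), with the list median as a bar, the median gene of 0.22 dotted and the 2-fold limits as grey lines. Genes named in the text are labelled. Bmf at 1.08 is the only point outside the limits, and the members' median of 0.63 is right of every list median.

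Markers were read to check the labelled cell type and the other cells a marrow sort could hold. Of 13 B-cell precursor markers 9 were measured on both arrays, among them Cd79a, Cd79b, Vpreb3, Ebf1 and Pax5, while Rag1, Igll1 and Il7r were not well above background on either array. Summed over genes, in multiples of the array's 75th percentile, these markers came to 127 for SoNar-high and 94.5 for SoNar-low. Neutrophil markers summed to 44.1 for SoNar-high and 52.9 for SoNar-low, with 10 of 10 measured. Of these 1 was at least 2-fold lower, against 4.39% of all genes measured on both arrays. The sums for monocytes and macrophages were 12.4 and 8.53 (5 of 8 measured, 2 at least 2-fold lower), for T and NK cells 4.95 and 4.71 (4 of 7, 2 lower), and for erythroid cells 56.3 and 31.8 (3 of 6, 2 lower), SoNar-high first. The sums were mostly those of 1 gene for erythroid cells (Hemgn) and for monocytes and macrophages (Ly86) on both arrays, and for T and NK cells (Lck) on the SoNar-high array. The median differences of the lists went the other way from these sums, at -1.61 for erythroid cells, -0.31 for monocytes and macrophages and -1.06 for T and NK cells. They were -0.53 for neutrophils and 0.42 for B-cell precursors. Cd3d and Klrb1c failed the background call on both arrays, while some markers of each of these cell types passed it on both. In such a bulk sample fewer cells of a type and less RNA per cell cannot be told apart, and the part of these cells in the members' differences was not tested.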

How the data were processed

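RNA of each population was labelled with Cy3 and hybridised to 1 array, as the labels' protocols say. Deposited were scanner tables with intensity values for each spot, made with Agilent Feature Extraction. Its version is 11.0.1.1 per the file headers and 9.1 per the submitters' processing notes. The processed signal is background-subtracted and not scaled between arrays, per the file headers. The deposited series matrix holds log2 values with a column median of 5.90 for each array; their scaling method is not given in the sources used here. Their differences correlated with those of the scanner files at r = 0.91 across probes, which are not independent replicates, so the 2 columns were not taken as swapped; centring and spread differ, and values near 0 can change sign.

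Control spots and flagged outlier spots (1 non-uniform and 189 population outliers on the SoNar-high array, 350 and 156 on the SoNar-low array) were dropped. Saturation was flagged for no spot. Replicate spots were averaged as log2 values, and each array's 75th percentile was subtracted. Accessions were matched without versions through a RefSeq gene table of GRCm38.p6, used for names; 27115 probes had a symbol. A gene took the mean of those of its probes that passed the background call on both arrays, and was called at 2-fold with no p-value. Members and lists were chosen with earlier results of these data known. Named were all members and, of each list, genes past 2-fold and the 2 highest and 2 lowest. Some genes this rule or the marker lists would name are not reported here. No gene was sought for a like pattern, since 2 arrays give 1 difference. On simulated arrays for this comparison (10521 genes, spot SD 0.1), 100 of 100 genes raised 3-fold and 100 of 100 lowered were called, with 0 of 10321 unchanged. Both simulated arrays were made from the SoNar-low levels with shifts past the threshold. The simulation thus checks the calling steps only and not differences as small as those of the members. Normexp (offset 50) used the median spot signal because the files hold no mean signal; loess had a span of 0.3. Python 3.11.15, numpy 2.4.6, pandas 2.3.3, statsmodels 0.14.6, matplotlib 3.10.9, R 4.3.3 and limma 3.58.1 were used.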

Additional observations from a re-analysis of the deposited data

How the results depend on the processing

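The limit of these data is that 1 array stands for each population, so scan, sort and array go with the comparison; dim probes on the SoNar-high array limit Bcl2l2, Bok and the first Bcl2l1 probe. A value is called moved when it shifted by more than 0.15, the SD between single spots. The median of the members, 0.63, was 1.19 with median scaling, 0.33 with the 75th percentile over probes seen on both arrays, 0.46 with quantile normalization, 0.38 with loess and 0.40 when centred on the median gene, and it moved by less than that SD under the other 8 alternatives. The count of 0 members at least 2-fold higher became 4 with median scaling, under which 32.1% of all genes were higher, and 4 at 1.5-fold. The count of 0 members at least 2-fold lower became 1 with no filter on dim probes (Bcl2l2, -1.08), under which 12.3% of all genes were lower. The gap between survival and effector genes, 0.15, was 0.34 with quantile normalization, 0.31 with loess and 0.32 with the series matrix. It was -0.74 with no filter on dim probes and -0.46 with a cut at 3 SD of the negative controls, because Bcl2l2, Bok and the first Bcl2l1 probe then entered. Bax changed sign, to -0.05 with the 75th percentile over probes seen on both arrays, -0.03 with quantile normalization and -0.11 with loess. Bcl2l1 changed sign too, to -0.96 with no filter on dim probes and with the cut at 3 SD of the negative controls. Of the pathway genes 1 was at least 2-fold higher. That count was 0 with normexp, the 75th percentile over probes seen on both arrays, loess, centring on the median gene and at 3-fold. It was 2 with the brightest probe and the series matrix, and 3 with no filter. At 1.5-fold it was 13, against 20.4% of all genes, and with median scaling 19, against 32.1% of all genes. The count of 0 lower was 1 with no filter and at 1.5-fold, against 12.3% and 10.2% of all genes. Over all genes the 2-fold calls were 253 higher and 462 lower, so 35.4% of the calls were higher. Median scaling gave 3380 and 140 (96.0% higher), the 75th percentile over probes seen on both arrays 61 and 853 (6.67%), quantile normalization 348 and 392 (47.0%), loess 118 and 531 (18.2%) and centring 70 and 742 (8.62%). Normexp gave 72 and 241 (23.0%), the series matrix 430 and 359 (54.5%), no filter 1885 and 2542 (42.6%), the stricter filter 141 and 111 (56.0%), and the cut at 3 SD of the negative controls 263 and 843 (23.8%). Thresholds of 1.5-fold and 3-fold gave 2145 and 1070, and 31 and 133. Except where dim probes enter, the cause of these shifts was not tested.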

Other observations

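Probes were also compared within some genes next to the members in the pathway, which were picked with their values known. The 2 probes of Mtch2 read 108 and 3258 units on the SoNar-high array, against 441 and 2569.99 units on the SoNar-low array, with differences of -1.83 and 0.54. The mean of -0.64 given for the gene thus describes neither probe. Of the 2 probes of Bcl2l14, a gene of the wider BCL2 family, 1 was lower in SoNar-high cells by at least 3.31-fold (16.2 units there, failing the background call, against 155 units on the SoNar-low array). The other failed the background call in SoNar-high cells too and was too dim in SoNar-low cells to show a decrease. For Cycs the measured probes lay at 0.50 and 1.1, on the same side of 0. The 3 probes of Mfn2 lay between -0.18 and -0.14, and the 3 of Tpt1, whose protein steadies MCL1, between 0.11 and 0.15. The probes' positions in their transcripts were not analysed here.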
